A study of Rattus norvegicus with 18 samples.

Results

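The genes described here changed in the same direction between weeks 2 and 6 of bone repair around all 3 scaffold types of a rat study. They were chosen by setting the 9 week 6 libraries against the 9 week 2 libraries with the scaffold as a term in the model, and 79 of 11814 tested genes passed at an adjusted p under 0.05 (edgeR quasi-likelihood test, Benjamini-Hochberg adjustment), which is 0.669% of the genes. Each library is bulk mRNA sequencing of cells freed from marrow and bone beside a printed scaffold bridging a radius defect of critical size, a gap too large to heal unaided, in wild-type rats. The scaffolds were bare polycaprolactone, a slowly resorbing polyester (PCL), PCL carrying calcium phosphate microparticles (CaP), and PCL carrying chitosan nanoparticles with amorphous calcium phosphate (ACPC-NP). All groups therefore share the PCL base and the defect, there is no group without a scaffold or an injury, and every scaffold has 3 libraries at each week, in 6 groups. The labels give no strain, sex or age for the rats.

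Osteoblasts build bone by secreting type I collagen in very large amounts. The chains are hydroxylated and folded in the endoplasmic reticulum by dedicated enzymes and chaperones, trimmed by proteinases outside the cell, and cross-linked by lysyl oxidases before mineral is laid down. In fracture and defect repair this matrix is first deposited in quantity and then remodelled.

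Total counts per library ran from 18880604 to 27186587. Levels are counts scaled by edgeR to library size (CPM), and changes are log2 fold changes of week 6 over week 2 ± standard error, so a negative value is a lower level at week 6. ACPC-NP week 2 replicate 3 stood apart, at 91.4 on the first principal component (26.1% of the variance) where the other 17 libraries lay between -23.9 and 25.5. Markers of bone-forming cells were present in every library, with Col1a1 at 4373 to 25367 CPM and Runx2 at 26.5 to 45.8 CPM. Marrow markers were present too, with the neutrophil genes S100a8 at 3738 to 9918 CPM, S100a9 at 5187 to 14387 and Mpo at 527 to 2344.5. Ltf, another neutrophil marker, was near the floor at 0 to 0.523 CPM, with 0 in 2 libraries. The level of a gene in such a mixture cannot tell fewer cells of a type from less RNA per cell. The week is also the age of the repair and of the animal, and these cannot be told apart.

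The sequences of 3 promoters and 4 mature miRNAs among these genes are shown first, since the data place several genes of the secretory route on the lower side and 2 miRNA genes on the higher side. The promoters are the 250 bases before the start of Creb3l1, a membrane-bound transcription factor of secretory cells, Kdelr3, which returns escaped proteins to the endoplasmic reticulum, and P3h1, a collagen prolyl 3-hydroxylase. Sequences are from RefSeq, build GRCr8, and lie at chr3:98449105-98449354 on the minus strand, chr7:112959382-112959631 on the plus strand and chr5:138126990-138127239 on the plus strand. Capitals mark the GC box GGGCGG, the CCAAT box and the CRE-like motif TGACGTG on either strand, and the 3 motifs have no bases in common in these windows.
Creb3l1: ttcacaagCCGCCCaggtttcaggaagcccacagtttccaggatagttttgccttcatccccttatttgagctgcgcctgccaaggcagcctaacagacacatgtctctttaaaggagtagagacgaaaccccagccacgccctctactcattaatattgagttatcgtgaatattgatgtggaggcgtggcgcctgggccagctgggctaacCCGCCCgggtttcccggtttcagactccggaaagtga
Kdelr3: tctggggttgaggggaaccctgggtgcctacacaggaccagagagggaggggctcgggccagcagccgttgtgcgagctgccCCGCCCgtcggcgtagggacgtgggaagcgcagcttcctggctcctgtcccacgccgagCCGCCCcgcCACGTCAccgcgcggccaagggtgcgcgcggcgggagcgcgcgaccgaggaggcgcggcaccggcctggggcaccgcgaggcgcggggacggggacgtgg
P3h1: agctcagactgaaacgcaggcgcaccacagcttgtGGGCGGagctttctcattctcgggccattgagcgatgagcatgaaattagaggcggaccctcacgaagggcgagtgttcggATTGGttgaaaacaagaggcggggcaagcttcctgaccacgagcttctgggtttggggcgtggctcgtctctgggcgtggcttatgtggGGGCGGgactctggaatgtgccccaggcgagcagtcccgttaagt
A GC box was found in 24 of the 37 lower genes that had a promoter entry, or 64.9%, against 58.3% of the promoters of 8956 tested genes. CCAAT was found in 18.9% of the lower genes and 35.9% of the tested genes, and TGACGTG in 2 of 37, or 5.41%, against 2.17%. Of the 10 higher genes with an entry, 50% had a GC box, 40% had CCAAT and 2, or 20%, had TGACGTG. Entries were found for 47 of the 79 genes, and the shares are a description of letters in these windows with no test.

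The mature forms of miR-144 and miR-142 have their seeds, bases 2 to 8, in capitals, and the 4 seeds differ from each other. The genes lie on chromosome 10, with miR-144-5p at chr10:63459409-63459431 and miR-142-5p at chr10:73055119-73055139, both on the plus strand of GRCr8.
miR-144-5p: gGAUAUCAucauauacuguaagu
miR-144-3p: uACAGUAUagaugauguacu
miR-142-5p: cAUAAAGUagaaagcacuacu
miR-142-3p: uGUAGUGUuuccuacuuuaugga
The libraries were made from polyadenylated RNA, so the counts of these genes are reads over their loci and do not measure the mature forms.

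In edgeR most of the 79 genes were lower at week 6. There were 62 lower genes (0.525% of those tested) and 17 higher genes (0.144%), and 42 of the lower and 7 of the higher genes changed by at least 2-fold. All 79 had the same sign in each scaffold, where 32% of all tested genes did so, and the model over all scaffolds that chose them favours such genes, so nothing is read from that count. The lower genes had a median log2 change of -1.17 and reached from -0.27 for Eif4e3 to -2.77 for Tnmd. The higher genes had a median of 0.92 and reached from 0.30 for Luc7l to 3.32 for Serpina1. Ranges of 3 against 3 libraries were separate in every scaffold, all in the same direction, for 46 tested genes, or 0.389%. Among these were 26 of the 62 lower genes, where 0.296% of tested genes were separate and lower, and 7 of the 17 higher genes, where 0.0931% were separate and higher. The same values chose the 79 genes, so these counts are a description too. At the threshold, Slc8a3 was the last gene inside at an adjusted p of 0.0485, and Mrc2, a collagen uptake receptor with a change of -0.95, was the first outside at 0.0501 (edgeR).

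The number of genes depended on single libraries and on the tool. Leaving out 1 library at a time gave between 24 genes, without PCL week 6 replicate 3, and 143 genes, without ACPC-NP week 2 replicate 3, and 77 of the 79 were among those 143. With the same design DESeq2 called 373 genes, 168 higher and 205 lower, among them all 79. Voom with quality weights called 260, 83 higher and 177 lower, among them 77. The split between directions was thus more even under both tools than the 17 and 62 of edgeR. With the libraries of only 2 scaffolds in the fit, 0 genes passed in edgeR for any of the 3 pairs, with 897 to 2187 genes at an unadjusted p under 0.05. In every one of these fits all 79 genes kept their sign. Nothing is read from that, since the fits reuse the libraries that chose genes with the same sign in each scaffold. In each of the 18 fits that left out a library, 22 genes passed.

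**Figure D1:**
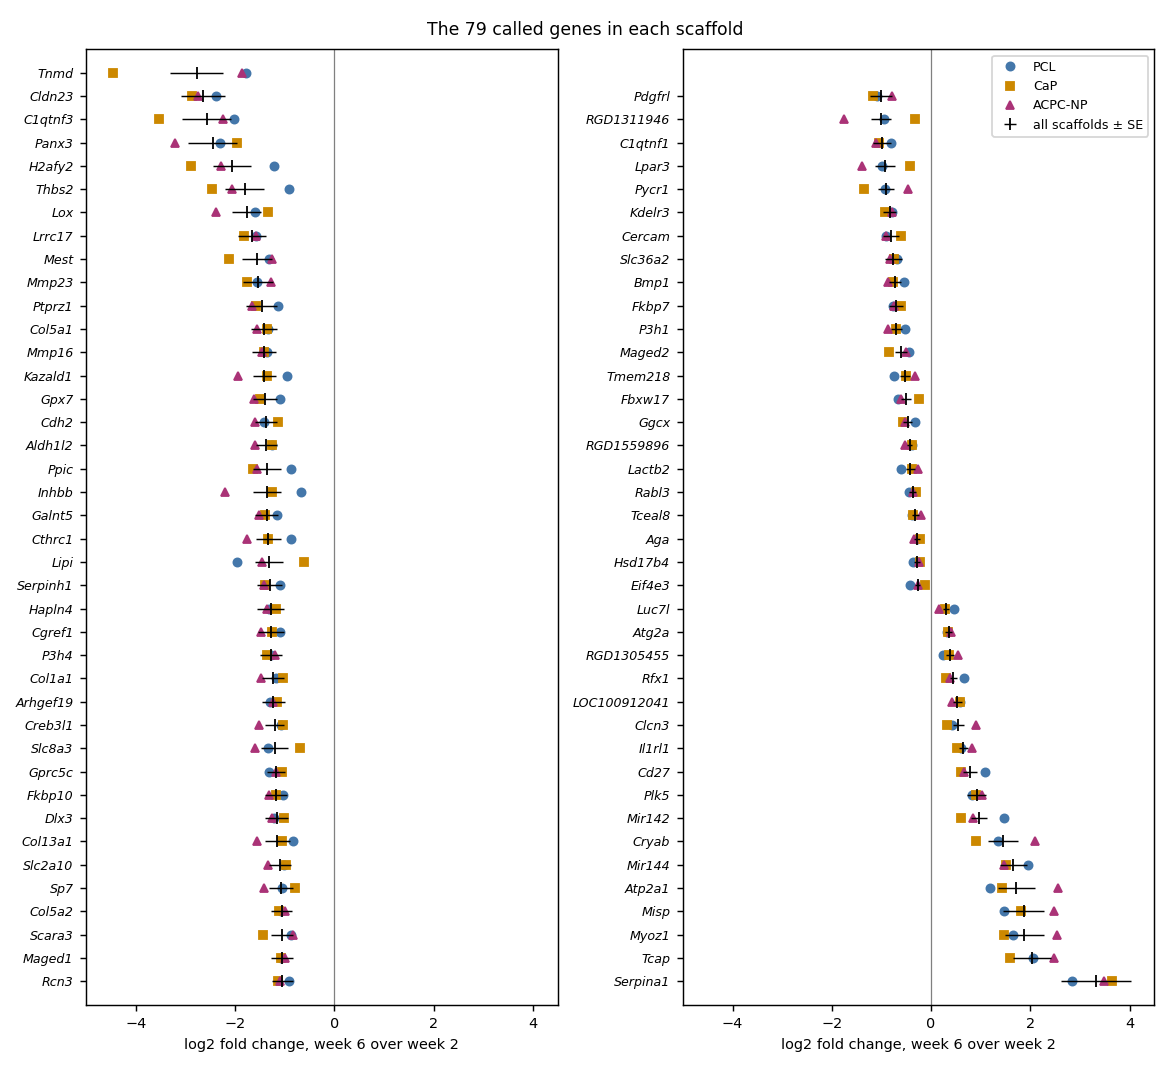
Log2 fold change of week 6 over week 2 (horizontal axis) for each of the 79 genes (rows), with 1 symbol per scaffold and a black bar for the estimate over all scaffolds with its standard error. All 3 symbols of every gene lie on the same side of 0, from Tnmd at -2.77 to Serpina1 at 3.32.

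Transcription factors of the osteoblast lineage were among the lower genes. Creb3l1, which in the mouse drives type I collagen transcription in osteoblasts, ranged from 19.03 to 40.1 CPM at week 2 with a median of 31.3, and from 7.60 to 24.1 at week 6 with a median of 13.5. Its ranges overlapped over all 9 against 9 libraries but were separate within 2 of the scaffolds. The change was -1.20 ± 0.19 (adjusted p = 0.0132, edgeR), or -1.07 around PCL, -1.02 around CaP and -1.52 around ACPC-NP. Sp7, also called osterix and required for osteoblast formation in the mouse, ranged from 2.69 to 7.13 CPM at week 2 and from 0.769 to 3.99 at week 6, with medians of 4.52 and 2.05. Its ranges were separate within each scaffold, the change was -1.08 ± 0.24 (adjusted p = 0.0453, edgeR), and the call was lost in 16 of the 18 fits without 1 library. Dlx3, a homeobox factor of bone and teeth, changed by -1.16 ± 0.23 (adjusted p = 0.0326, edgeR), and its call was lost in 12 of those 18 fits. Runx2, the master factor of the lineage, was at 39.5 ± 3.12 CPM (SD, n = 9) at week 2 and 35.7 ± 5.38 at week 6, and its change of -0.15 ± 0.08 did not pass (adjusted p = 0.436, edgeR).

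Among the lower genes 4 code for collagen chains, a group made after the calls were known. Col1a1, the main chain of bone, stood at 14804, 23464 and 18272 CPM around PCL at week 2 and at 8338, 9855 and 6722 at week 6. Around CaP it stood at 10960, 18573 and 25367 at week 2 and at 6561, 6660 and 13583 at week 6. Around ACPC-NP it stood at 20201, 21172 and 7546 at week 2 and at 4373, 5617 and 7484 at week 6. Every week 6 library lay below its scaffold's week 2 libraries around PCL and ACPC-NP, while around CaP the ranges overlapped through week 6 replicate 3. The change was -1.23 ± 0.23, a 2.35-fold lower level (adjusted p = 0.0224, edgeR), and it was lost without CaP week 6 replicate 1, ACPC-NP week 2 replicate 2 or PCL week 6 replicate 3, at an adjusted p of at most 0.0565 and a change between -1.37 and -1.15 over all 18 fits. Col5a1, a chain that sets the thickness of type I fibrils, fell from a median of 323 CPM (range 155 to 469) to 120.5 (range 44.0 to 161), by 1.42 ± 0.25 on the log2 scale (adjusted p = 0.0186, edgeR). Its ranges were separate within each scaffold, and the call was lost only without PCL week 6 replicate 3, at an adjusted p of 0.0522. Col5a2 changed by -1.06 ± 0.21 and Col13a1, a transmembrane collagen, by -1.15 ± 0.24. Their calls were lost in 12 and 13 of the 18 fits without 1 library.

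The collagen chain list had 13 tested members, and Col13a1 is not on it. All 13 lay below 0 in each of the 3 scaffolds, 3 were called lower and 0 higher, and their median log2 change was -1.12. Of all 11814 tested genes 6546 lay below 0, 18.6% did so in each scaffold, 0.525% were called lower and the median was -0.02. Col3a1, the chain of early repair tissue, was at 1106 ± 536 CPM (SD, n = 9) at week 2 and 453 ± 389 at week 6, a change of -1.31 ± 0.47 that did not pass (adjusted p = 0.217, edgeR). The summed level of the list was 9142 to 29764 CPM at week 2 with a median of 22089, and 4753 to 14660 at week 6 with a median of 8387. Most of that sum is Col1a1, which alone had medians of 18573 and 6722 CPM.

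**Figure D2:**
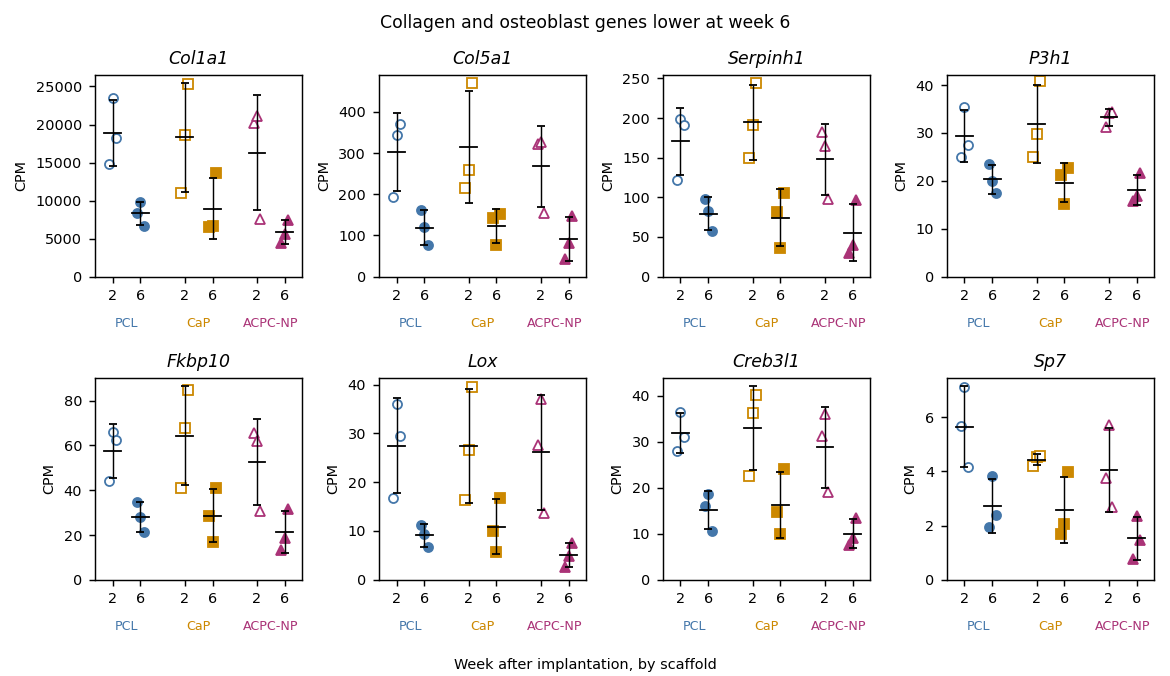
CPM (vertical axes, each from 0) in every library for 8 lower genes, by scaffold and week (horizontal axis); open symbols are week 2, filled symbols week 6, and black bars the mean ± SD of 3 libraries. Median Col1a1 was 18573 CPM over the 9 week 2 libraries and 6722 over the 9 week 6 libraries, and the ranges overlap for 7 of the 8 genes, the exception being P3h1.

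A further 13 lower genes act in the secretory route on collagen or other proteins, or outside it on precursor supply (Pycr1 and Aldh1l2). They were grouped from the called genes alone, after the calls were known, and their changes ran from -1.40 to -0.47. Serpinh1, the collagen-specific chaperone, stood at 122, 199 and 191 CPM around PCL at week 2 and at 98.4, 83.2 and 57.0 at week 6. Around CaP it went from 149, 191 and 244 to 81.9, 35.6 and 106, and around ACPC-NP from 182, 165 and 97.5 to 29.5, 40.04 and 96.7. The ranges were separate within each scaffold, and the change was -1.30 ± 0.24 (adjusted p = 0.0233, edgeR), with the call lost in 5 of the 18 fits without 1 library. P3h1 was at 25.1 to 40.9 CPM at week 2 and 15.1 to 23.5 at week 6, so all 9 week 6 libraries lay below all 9 week 2 libraries. Of the tested genes 13, or 0.11%, were separate in this way, and 12 of these are among the 79, with 2 on the higher side (0.0254% of tested genes) and 10 on the lower side (0.0846%), an overlap that the choice of the 79 from the same values favours. The change of P3h1 was -0.70 ± 0.12 (adjusted p = 0.0132, edgeR). Fkbp10, a prolyl isomerase that binds procollagen, had a median of 62.3 CPM at week 2 and 28.0 at week 6 and changed by -1.17 ± 0.22. P3h4, a partner of the enzymes that hydroxylate collagen lysines, changed by -1.28 ± 0.23. Kdelr3 went from a median of 19.9 CPM (range 14.6 to 24.1) to 10.6 (range 7.40 to 15.8), a change of -0.83 ± 0.13 that passed in every fit without 1 library.

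Others of the 13 are enzymes of redox balance, prolyl isomerisation, precursor supply and protein modification. Gpx7, a peroxidase of the endoplasmic reticulum, changed by -1.40 ± 0.25, and Ppic, cyclophilin C, by -1.36 ± 0.29 with all 9 week 6 libraries below all 9 week 2 libraries. Pycr1, which makes proline, changed by -0.91 ± 0.17, and Aldh1l2, a mitochondrial folate enzyme, by -1.37 ± 0.21. Ggcx, the vitamin K dependent carboxylase that modifies osteocalcin, changed by -0.47 ± 0.09. Of the 18 fits without 1 library, the call was lost in 13 for Ppic, 8 for Ggcx and 4 for Pycr1. Aldh1l2, Galnt5, Gpx7, Kdelr3 and P3h1 passed in every fit without 1 library, and the heat shock and unfolded protein list, of 23 tested members, had 0 called genes and a median change of -0.07 (edgeR; 0 members at an unadjusted p under 0.05).

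Lox and Bmp1, which act on collagen outside the cell, were lower as well. Lox, lysyl oxidase, stood at 16.9, 36.0 and 29.5 CPM around PCL at week 2 and at 11.2, 9.38 and 6.66 at week 6. Around CaP it went from 16.3, 26.6 and 39.6 to 10.1, 5.79 and 16.8, and around ACPC-NP from 27.7, 37.1 and 13.7 to 2.65, 4.87 and 7.55. Around PCL and ACPC-NP no week 6 library reached a week 2 library, and around CaP 1 did by a small margin. The change was -1.76 ± 0.29 (adjusted p = 0.0132, edgeR). Bmp1, the procollagen C-proteinase, was at 41.9 to 81.0 CPM at week 2 and 24.9 to 49.1 at week 6, a change of -0.73 ± 0.13. Both Lox and Bmp1 passed in every fit without 1 library. Thbs2, a matricellular protein, changed by -1.81 ± 0.39, Cthrc1, a secreted protein of matrix-forming cells, by -1.33 ± 0.26, and Tnmd, tenomodulin of tendon and ligament, by -2.77 ± 0.53 from a median of only 1.08 CPM. Mmp16, a membrane-bound metalloproteinase, changed by -1.41 ± 0.24 and Mmp23 by -1.53 ± 0.30. Of the 18 fits without 1 library, the call was lost in 14 for Thbs2, 9 for Cthrc1 and 6 for Tnmd. For Mmp23 it was lost in 11 and for Mmp16 in 0.

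The matrix assembly and cross-linking list had 29 tested members, and all 29 lay below 0, of which 25 did so in each scaffold. Of the 29, 6 were called lower and 0 higher, and the median was -0.93. Fn1, fibronectin, was the nearest to 0 at -0.02 ± 0.22. In the list of matrix proteases and inhibitors 2 of 20 were called lower, the 2 metalloproteinases above, and the median was -0.33. Beside both lists, 6546 of all 11814 tested genes lay below 0, 18.6% in each scaffold, and 0.525% were called lower. Mmp9, the gelatinase of neutrophils and osteoclasts, was at 942 ± 112 CPM (SD, n = 9) at week 2 and 1019 ± 283 at week 6.

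The osteoblast list had 19 tested members. All lay below 0, 16 of them in each scaffold, and 3 were called lower, namely Col1a1, Kazald1, a secreted protein related to growth factor binding proteins, and Sp7. Over all tested genes 6546 of 11814 lay below 0, 18.6% in each scaffold, and 0.525% were called lower. Without ACPC-NP week 2 replicate 3, 5 members of the list were called lower, where 103 of all 11943 genes tested in that fit were. The median of the osteoblast list was -0.997. Its summed level, most of it Col1a1 again, was 11837 to 32563 CPM at week 2 and 6084 to 18837 at week 6. Members of mineral formation differed among themselves: Ibsp, bone sialoprotein, changed by -1.53 ± 0.38 (adjusted p = 0.0805, edgeR) and Bglap, osteocalcin, by -0.77 ± 0.24 (adjusted p = 0.164), neither of which passed, while Alpl, alkaline phosphatase, was at 120.1 ± 26.6 CPM (SD, n = 9) and 117 ± 32.2. Of the 9 osteocyte genes 1 was called lower, Ptprz1, a receptor phosphatase, at -1.46 ± 0.31, and that call was lost in 15 of the 18 fits without 1 library. Without ACPC-NP week 2 replicate 3 the osteocyte list had 3 genes called lower. The chondrocyte list had 0 of 12 called and a median of -0.93 (edgeR; 1 of 12 at an unadjusted p under 0.05), with summed levels of 492.9 to 9700 CPM at week 2 and 85.9 to 5778 at week 6. The osteoclast list had 0 of 14 called and a median of -0.09 (edgeR; 3 of 14 at an unadjusted p under 0.05). Of 44 lists with a tested member, 6 had a called one.

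**Figure D3:**
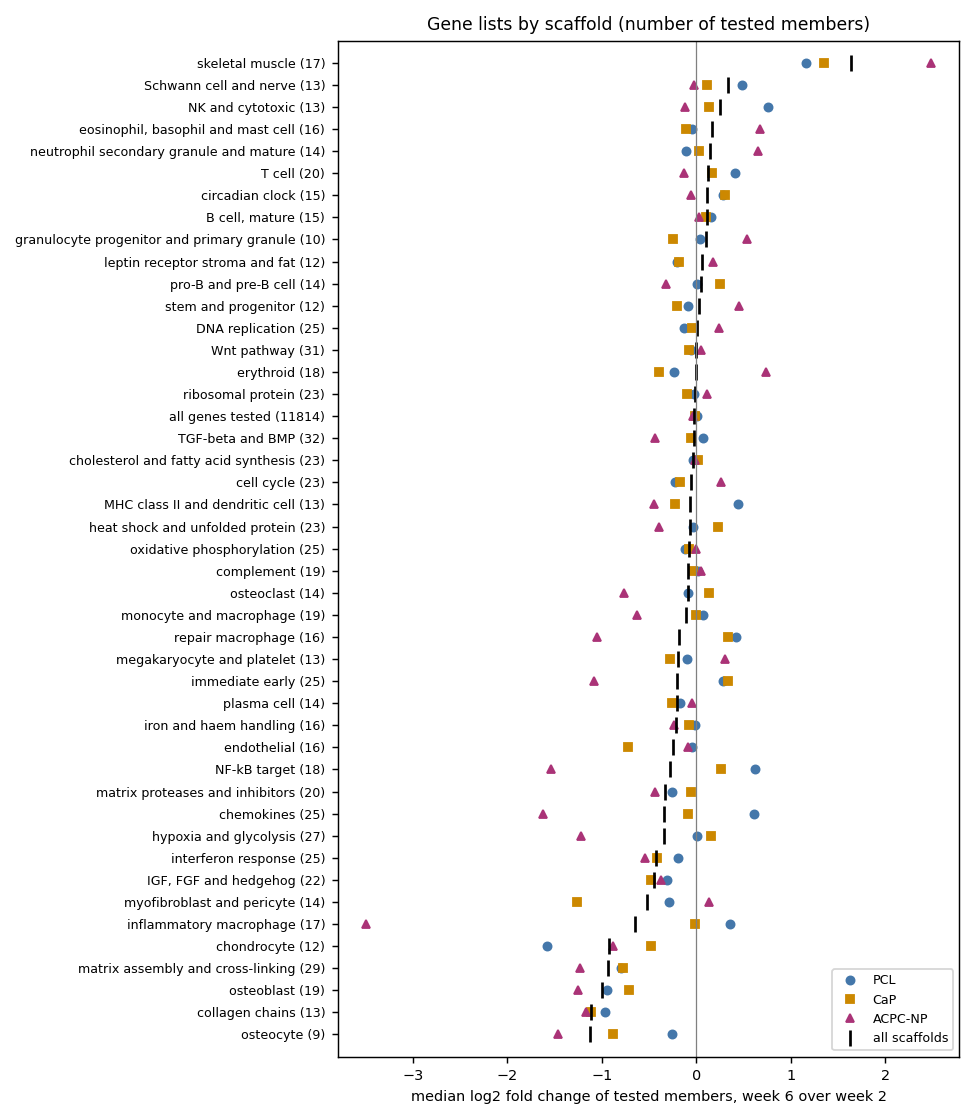
Median log2 fold change of week 6 over week 2 (horizontal axis) over the tested members of each gene list (rows, number of members in brackets), with 1 symbol per scaffold and a bar for the estimate over all scaffolds. Collagen chains at -1.12, osteoblast at -0.997 and matrix assembly at -0.93 have all 3 scaffolds below 0, skeletal muscle at 1.64 has all 3 above 0, and inflammatory macrophage genes are spread from 0.35 around PCL to -3.50 around ACPC-NP.

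Other lower genes code for cell surface and secreted proteins. Panx3, a channel protein of osteoblasts and cartilage, went from a median of 13.1 CPM (range 3.93 to 30.1) to 1.41 (range 0.385 to 10.2). Its change was -2.45 ± 0.50 (adjusted p = 0.0326, edgeR), and the call was lost in 11 of the 18 fits without 1 library. Cdh2, N-cadherin, changed by -1.38 ± 0.22, with medians of 18.4 and 6.04 CPM. C1qtnf3, a secreted protein also called cartonectin, changed by -2.57 ± 0.50, and its relative C1qtnf1 by -0.98 ± 0.18 with ranges of 4.18 to 6.37 and 1.52 to 3.84 CPM that did not overlap. Inhbb, the beta B subunit of activin and inhibin, was at 1.21 to 2.84 CPM and then 0.256 to 0.996, also without overlap. The call of Inhbb was lost in 12 of the 18 fits without 1 library, and that of C1qtnf3 in 6. Cldn23, a claudin, changed by -2.64 ± 0.44 at very low levels, with 0.268 to 1.62 CPM at week 2 and 0 to 0.245 at week 6. The smallest adjusted p of all, 0.00298 (edgeR), belonged to RGD1559896, a gene now named C19h1orf198 in RefSeq, with 46.6 to 64.6 CPM at week 2, 38.0 to 42.1 at week 6 and a change of -0.43 ± 0.05. It is 1 of 16 lower genes outside these roles, whose changes ran from -2.06 for H2afy2, a histone variant gene now named Macroh2a2, to -0.27 for Eif4e3, a cap-binding protein. The 13 membrane, junction and transport genes ran from -2.64 to -0.53.

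Among the 17 higher genes, 4 belong to muscle fibres. Tcap, telethonin of the sarcomere, stood at 0.728, 1.31 and 0.833 CPM around PCL at week 2 and at 3.71, 4.20 and 4.08 at week 6. Around CaP it went from 0.617, 0.795 and 0.828 to 2.40, 1.35 and 3.04, and around ACPC-NP from 0.394, 0.946 and 1.18 to 1.54, 1.26 and 11.1. The ranges were separate within each scaffold, and ACPC-NP week 6 replicate 3 was far above the rest. The change was 2.04 ± 0.38 (adjusted p = 0.0231, edgeR), lost in 3 of the 18 fits without 1 library. Atp2a1, the calcium pump of fast muscle, was at 4.13 to 13.8 CPM and then 11.2 to 99.5, a change of 1.72 ± 0.38 that was lost in 15 of those fits and under voom (adjusted p = 0.0651). Myoz1, a protein of the Z-disc, changed by 1.88 ± 0.40 and Cryab, a small heat shock protein of muscle, by 1.45 ± 0.30. The calls of Myoz1 and Cryab were each lost in 13 of the 18 fits without 1 library. In the skeletal muscle list all 17 tested members lay above 0, 16 of them in each scaffold, and the median was 1.64. At an unadjusted p under 0.05, 16 were higher (edgeR), and 1 was called, Atp2a1, or 0 without ACPC-NP week 2 replicate 3. In the fit without that library the list median was 1.65. Tcap, Myoz1 and Cryab, which are not on the list, were still called in it. Over all 11814 tested genes 5268 lay above 0, 13.5% in each scaffold. Of these 11814 genes 735 were higher at an unadjusted p under 0.05 and 0.144% were called higher. The summed level of that list was 34.8 to 122 CPM at week 2 with a median of 88.0, and 89.1 to 893 at week 6 with a median of 191. The defining markers Acta1 and Ckm were above 0 in every library and Myh4 was at 0 in 2. The part of muscle tissue taken along at dissection in these changes was not tested.

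Genes of blood and immune cells made up another 4. Il1rl1, the receptor for interleukin 33, was at 15.2 to 25.8 CPM at week 2 and 26.8 to 41.1 at week 6, so all 9 week 6 libraries were higher, with a change of 0.65 ± 0.10 (adjusted p = 0.0132, edgeR). Cd27, a receptor of T and B cells, had medians of 3.59 and 6.88 CPM and changed by 0.79 ± 0.13, with ranges separate in 2 of the scaffolds. Mir142, a gene of blood cells, stood at 5.25, 6.45 and 4.12 CPM around PCL at week 2 and at 12.8, 14.9 and 16.3 at week 6. Around CaP it went from 4.81, 5.48 and 8.56 to 8.17, 8.06 and 12.3, and around ACPC-NP from 4.72, 6.90 and 5.33 to 9.10, 9.98 and 11.3. The groups overlapped around CaP alone, and the change was 0.97 ± 0.16. Mir144, a gene of the red cell lineage, was at 0.277 to 0.833 CPM and then 0.915 to 2.704, without overlap over 9 against 9 libraries, a change of 1.65 ± 0.27 (adjusted p = 0.0132, edgeR). All 4 of these passed in every fit without 1 library.

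The lists of the cells these genes are known from had no called member. The T cell list had 0 of 20 called (edgeR; 3 at an unadjusted p under 0.05) and a median of 0.12, with summed levels of 186 to 287 CPM at week 2 and 218 to 321 at week 6. The mature B cell list had 0 of 15 called (2 at an unadjusted p under 0.05) and a median of 0.11. The erythroid list had 0 of 18 called, 0 at an unadjusted p under 0.05 and a median of -0.01, with summed levels of 30282 to 65640 CPM and 30529 to 86648. Within scaffolds the erythroid medians went in opposite directions, at -0.24 around PCL, -0.39 around CaP and 0.74 around ACPC-NP.

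**Figure D4:**
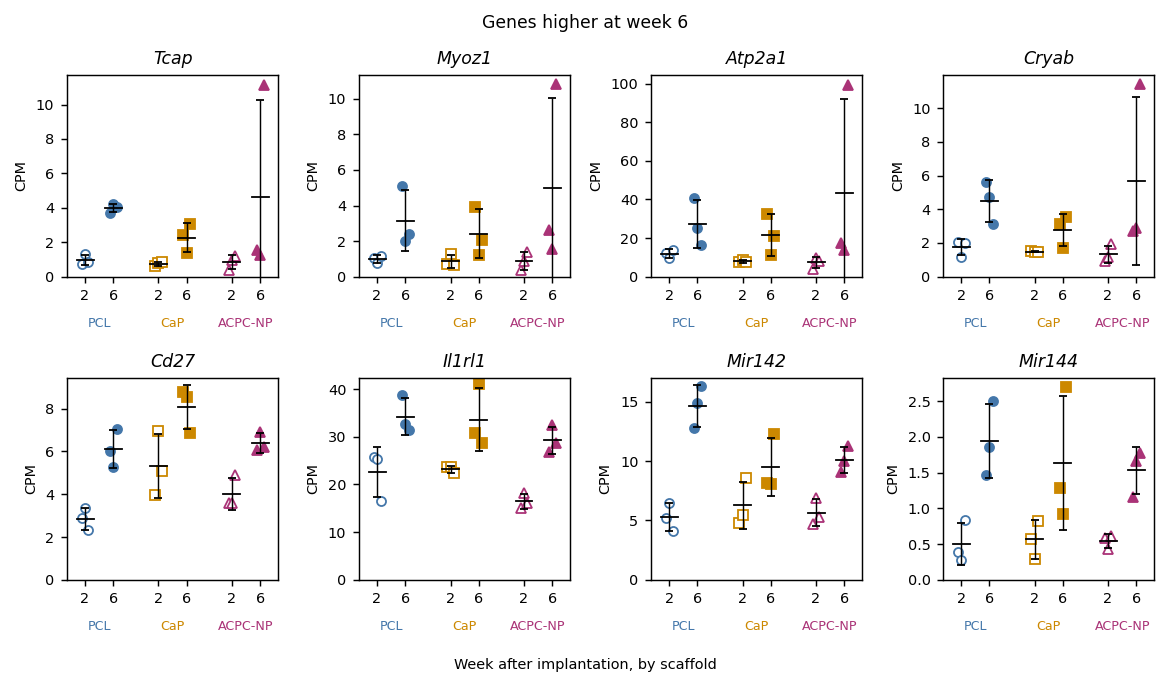
CPM (vertical axes, each from 0) in every library for 8 higher genes, by scaffold and week (horizontal axis); open symbols are week 2, filled symbols week 6, and black bars the mean ± SD of 3 libraries. For the 4 muscle genes ACPC-NP week 6 replicate 3 is the highest library, at 11.1 CPM for Tcap, while Il1rl1 and Mir144 have all 9 week 6 libraries above all 9 week 2 libraries.

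The other 9 higher genes have varied roles. Serpina1, alpha-1 antitrypsin, changed by 3.32 ± 0.71, from 0 to 0.753 CPM at week 2 to 0.261 to 12.2 at week 6, and voom gave it an adjusted p of 0.134. Rfx1, a transcription factor, went from a median of 66.6 to 94.1 CPM, a change of 0.45 ± 0.07. Atg2a, a lipid transfer protein of autophagy, went from 171.5 to 215 CPM at the median, a change of 0.35 ± 0.07 with ranges separate within each scaffold. Clcn3, an endosomal chloride and proton exchanger, changed by 0.55 ± 0.11. Of the 18 fits without 1 library, the call was lost in 14 for Serpina1, 12 for Atg2a and 4 for Clcn3.

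Whether the change with time differed between scaffolds was tested as an interaction. In edgeR 0 of 11814 genes passed (lowest adjusted p = 0.364), with 1295, or 11%, at an unadjusted p under 0.05, while DESeq2 called 162 and voom 968. Of the 79 genes, 3 had an unadjusted interaction p under 0.05: Tnmd, at -1.77 around PCL, -4.46 around CaP and -1.86 around ACPC-NP, RGD1311946 and Clcn3. Foxp3, Ccl4, Tusc2, RGD1311739 and Pianp had the smallest interaction p among genes at a mean log2 CPM of at least 1. These ran from 0.000144 for Foxp3 to 0.000332 for Pianp (unadjusted, edgeR). Across all tested genes the changes around PCL and CaP had a Spearman correlation of 0.521, those around PCL and ACPC-NP of -0.00866, and those around CaP and ACPC-NP of -0.102. These are correlations across genes, which are not independent replicates, and the scaffolds share no library. Without ACPC-NP week 2 replicate 3 they were 0.515, 0.136 and 0.0403.

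**Figure D5:**
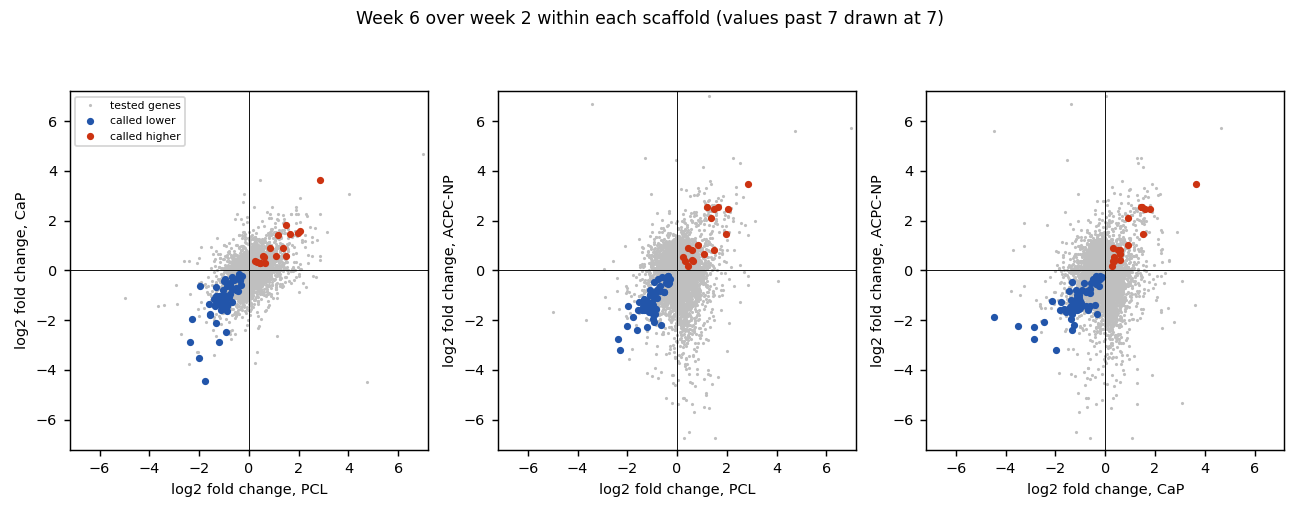
Log2 fold change of week 6 over week 2 around one scaffold against another for all 11814 tested genes (grey), with the 62 lower genes in blue and the 17 higher genes in red; values beyond the axis limit are drawn at it. The cloud is tilted for PCL and CaP (Spearman 0.521) and not for the pairs with ACPC-NP (-0.00866 and -0.102), while the coloured genes lie in the lower left and upper right quadrants.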

How the data were processed

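Bulk mRNA libraries of 18 samples were compared. Per the labels, polyadenylated RNA came from cells of marrow and bone freed by red cell lysis and enzyme digestion and then pooled. The labels do not say whether libraries of a group come from separate animals, so p-values measure the spread between these libraries, some of which may be technical. The table that the authors deposited holds counts of reads per gene symbol, not normalised. Per the submitters' processing notes bcl2fastq 2.20.0, STAR 2.7.9a, Subread 2.0.1 and featureCounts were used with build Rnor_6.0; the sources used here give neither annotation nor strand setting. A deposited table of normalised values was not used. The smallest chi-square per degree of freedom between replicates was 30.5, so none was a duplicate.

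Here, edgeR 4.0.16 in R 4.3.3 was run on the counts as deposited. The filter filterByExpr (minimum count 10, minimum total 15) kept 11814 of 17337 genes, holding 99.98% of counts. The model had scaffold and week as terms, with TMM scaling and a robust quasi-likelihood fit (14 residual degrees of freedom, biological coefficient of variation 27.7%). P-values were adjusted by Benjamini-Hochberg with a threshold of 0.05. Changes within scaffolds and the interaction came from a model of 6 groups. Standard errors are the change divided by the root of F. Alternatives were DESeq2 1.42.0, voom in limma 3.58.1, other scaling, no filter, other designs and leaving out libraries. The code was tested on simulated data.

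Named genes were the called genes at a mean log2 CPM of at least 1 (prior count 2). They were ranked by the smallest of their 3 changes within scaffolds, up to 15 each way. To these were added up to 4 members of each list with the smallest p and a panel of bone and immune genes. The last were the 5 genes with the smallest interaction p, also at a mean log2 CPM of at least 1. Other called genes in the text were chosen after their values were seen, as were the roles that order them. The members and the 45 lists, with 860 of 932 entries in the table, were chosen with earlier results of these data known. The sex-linked list had 0 tested genes.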

Additional observations from a re-analysis of the deposited data

Results flagged for a closer look

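In groups of 9 libraries of a week, 25 of 282 sets of values had a highest or lowest library set apart from the rest by a large share of the range. Chance flags about 1 in 20 sets. ACPC-NP week 2 replicate 3 accounted for 19 of the 25, the values being in CPM for genes and in mean centred log2 CPM for lists.

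In that library Il1b, an inflammatory cytokine, stood at 9502 CPM, where the next library had 1095. Il6 stood at 233.2, Vegfa at 975.8, the macrophage marker Cd68 at 663.8 and the lysosomal enzyme Aga at 48.06, each the highest of week 2. Dlx3 at 0.8983, Mmp16 at 1.572, Slc2a10, a glucose transporter family member, at 1.123 and Slc36a2, an amino acid transporter, at 3.369 were the lowest of week 2, although all 4 were among the genes higher at week 2 than at week 6. Its list scores were high for NF-kB target genes (2.674), hypoxia and glycolysis (2.307), immediate early genes (1.829), heat shock and unfolded protein (1.09), iron and haem handling (1.046) and complement (0.5251). They were low for cell cycle (-1.002), eosinophil, basophil and mast cell (-0.8679), DNA replication (-0.8421) and stem and progenitor genes (-0.5648).

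The other 6 values were spread over 5 libraries. Misp, a spindle protein, stood at 2.891 CPM in PCL week 2 replicate 2, where the next library had 0.627. The skeletal muscle score was lowest in ACPC-NP week 2 replicate 1 at -1.856. RGD1305455, now Trappc14, was highest in PCL week 6 replicate 1 at 105.9 CPM, and the DNA replication score was lowest there at -0.2428. Slc2a10 was lowest in ACPC-NP week 6 replicate 2 at 0.4062 CPM, and the interferon response score was lowest in PCL week 6 replicate 2 at -1.118.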

How the results depend on the processing

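The direction of the 79 genes was the same under every setting, while their number was not. The settings reuse the values that chose these genes, which favours the same direction, so nothing is read from it. Of 7138 values of named genes under other settings, 926 lost the threshold and 54 gained it. Among genes called in the main fit or the other fit, 0 values reversed in sign. Sign changes of genes called in neither fit were not counted. DESeq2 called 373 genes, 371 with a shared direction, and 162 for the interaction. Voom with quality weights called 260, 258 and 968. With only 2 scaffolds in the fit, 0 genes passed without PCL (897 at an unadjusted p under 0.05), 0 without CaP (1147) and 0 without ACPC-NP (2187). Fewer libraries enter those fits. Leaving out 1 library gave 24 to 143 genes, the same with a shared direction, and 0 to 52 for the interaction. The count moved by over 1.5 times without CaP week 2 replicate 2 (33), CaP week 6 replicates 1 (31) and 2 (51), ACPC-NP week 2 replicates 1 (35), 2 (25) and 3 (143), ACPC-NP week 6 replicates 1 (38) and 2 (43), PCL week 2 replicates 2 (45) and 3 (31), and PCL week 6 replicates 1 (49), 2 (41) and 3 (24). The interaction count was 52 without ACPC-NP week 2 replicate 1 and 2 without PCL week 6 replicate 1. The cause was not tested. Scaling by DESeq2 size factors gave 77 genes, no filter 64, the mean of 3 contrasts 81 and no scaffold term 76. Of 1232 list medians 50 moved.

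With the replicate number as a block, 70 genes passed, 70 with a shared direction and 0 for the interaction, and 61 of the 79 were among them. In the deposited column names the libraries of a scaffold share no number between the weeks. The replicate numbers are therefore not taken to pair the libraries. Deviations of libraries with the same replicate number correlated at -0.303 to 0.225, with 2 of 9 pairs over 0.1.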

Other observations

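Of 15 tested members of the circadian list 9 lay above 0 and 6 below. At an unadjusted p under 0.05, 5 were higher and 1 lower, where 735 of all 11814 tested genes were higher and 870 lower, and 0 passed adjustment (edgeR). Per2, a repressor of the clock, went from 17.2 ± 5.60 CPM (SD, n = 9) to 23.6 ± 4.44, a change of 0.47 ± 0.17 (adjusted p = 0.218, edgeR), and Tef, a clock output factor, from 21.3 ± 4.64 to 27.1 ± 2.88. Without ACPC-NP week 2 replicate 3, 2 members of the list were called higher, where 40 of all 11943 genes tested in that fit were. The labels give no hour of collection.

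Of 25 tested interferon response genes 23 lay below 0, 14 of them in each scaffold, with a median of -0.43 and 0 called (edgeR; 4 lower at an unadjusted p under 0.05). Of all 11814 tested genes 6546 lay below 0, 2192 of them in each scaffold, and 870 were lower at an unadjusted p under 0.05. Irf7, a regulator of interferon genes, was at 189 ± 117 CPM (SD, n = 9) at week 2 and 112 ± 55.2 at week 6. Inflammatory macrophage genes had medians of 0.35 around PCL, -0.01 around CaP and -3.50 around ACPC-NP, and the last was -1.17 without ACPC-NP week 2 replicate 3.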
